A study of Mus musculus with 8 samples.

Results

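The insulin-like growth factor (IGF) genes examined here were Igf1, its receptor gene Igf1r and 6 genes of the IGF binding proteins, Igfbp2 to Igfbp7. They were taken by symbol from the deposited table, and all 8 were found among its 12160 genes. RNA was measured in pancreatic stellate cells (PSCs), fibroblast-like cells resident in the pancreas, here an immortalized mouse line embedded in Matrigel. The cells had 4 days in growth medium and then 4 days in one of 3 media. Medium conditioned by KPC organoids silenced for Brca2 (shBrca2-CM, 3 samples) was compared with medium conditioned by KPC organoids with a non-targeting shRNA (shControl-CM, 3 samples) and with control medium (2 samples). KPC organoids are mouse pancreatic carcinoma cells in 3D culture, and the silencing was made in them with lentiviral shRNA, so all 3 groups hold the same PSC line and Brca2 in the PSCs does not check the labels. The control titles say DMEM, and the study's results name growth medium, while the recorded treatment and the methods name medium that PSCs had conditioned. Growth medium is the name used for it below. Conditioned medium was collected in DMEM with less serum than growth medium, so serum and conditioning cannot be told apart in the comparisons with growth medium.

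IGF1 and IGF2 are secreted growth factors that signal through the receptor tyrosine kinase encoded by Igf1r, which feeds into the PI3K-AKT-mTOR cascade. IGF binding proteins hold the ligands in the extracellular space and can limit or prolong their access to the receptor, and proteases release the ligands by cutting the binding proteins. Activated fibroblasts are a well-known source of both ligands and binding proteins in pancreatic tumors.

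Between the conditioned media, 3 of the 7 members tested were called, where 3.13% of all genes tested were. A gene was called where the adjusted p was under 0.1, the absolute log2 fold change over 0.5 and the mean normalized count over 5, the limits given in the study's methods. Igfbp2 and Igfbp5 were lower with shBrca2-CM than with shControl-CM and Igfbp6 was higher, while Igf1r, Igfbp3, Igfbp4 and Igfbp7 were not called in edgeR, and DESeq2 called Igfbp7 lower as well. Igfbp2 was at a similar level with shControl-CM and growth medium and low with shBrca2-CM. Igfbp5 was raised with shControl-CM, and Igfbp4 was raised with shBrca2-CM, each relative to growth medium. Igf1 was nearly absent with either conditioned medium.

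Counts on genes summed to between 655996 and 1095534 in the shBrca2-CM libraries, between 1093609 and 1624392 in the shControl-CM libraries, and to 5476988 and 4623846 with growth medium, so low genes such as Igf1 and Igfbp2 were measured least precisely with shBrca2-CM. Of 12 fibroblast and stellate cell markers, 12 were in the table, and their summed level in CPM (counts scaled to effective library size) was 5455 to 6520 in the growth medium libraries, 4219 to 4764 in the shControl-CM libraries and 3245 to 3413 in the shBrca2-CM libraries. Vim set the place of growth medium in that order, with 3396 and 4115 CPM in growth medium and 243 to 749 CPM in conditioned medium. Without Vim the sum of the other 11 was lowest in growth medium (2058 to 2405 CPM), then 2637 to 2977 CPM in shBrca2-CM and 3908 to 4386 CPM in shControl-CM libraries, and the markers differed in direction. Dcn, Thy1 and Pdpn were each lower in both growth medium libraries than in any other, while Col1a1, Col1a2, Col3a1 and Vim were each higher. Of 8 epithelial markers, 3 were in the table (Krt18, Krt19 and Muc1), with summed levels of 37.0 to 41.7 CPM in growth medium, 57.7 to 70.6 CPM in shControl-CM and 59.3 to 94.1 CPM in shBrca2-CM libraries. Krt18 and Muc1 were lowest in growth medium, whereas Krt19 was highest there, at 24.3 and 25.4 CPM against 5.79, 16.2 and 13.3 CPM with shBrca2-CM and 2.56, 3.87 and 2.04 CPM with shControl-CM. The conditioned media thus did not overlap for Krt19. Dcn (909.7 to 1222 CPM with shBrca2-CM, 1922 to 2257 CPM with shControl-CM) did not overlap either and was lower with shBrca2-CM. The same was true of Pdpn (99.6 to 122 CPM and 179 to 307 CPM) and Lum (4.44 to 8.68 and 14.5 to 28.8 CPM). Higher with shBrca2-CM, also without overlap, was Col1a2 (211 to 292 and 118 to 185 CPM). So were Pdgfra (60.8 to 90.8 and 38.7 to 46.8 CPM) and Fap (2.89 to 5.33 and 0 to 0.966 CPM). Over all genes tested, 19.8% did not overlap between the conditioned media. Of 6 immune markers only Cd68 was in the table, at 3.87 to 4.69 CPM in growth medium, 14.1 to 21.1 CPM in shControl-CM and 8.71 to 18.6 CPM in shBrca2-CM libraries, and of 4 endothelial markers only Kdr and Tek, at or below 3.48 CPM in every library. The part of these marker levels in the results below was not tested. In bulk RNA, fewer cells that express a gene and less of its RNA per cell cannot be told apart.

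Igfbp2 and Igfbp5 are neighbours on chromosome 1 and lie tail to tail. In the GRCm38.p6 annotation of RefSeq, the build the labels name as mm10, Igfbp2 spans chr1:72824480-72852474 on the plus strand and Igfbp5 spans chr1:72858065-72874865 on the minus strand, 5.59 kb apart with no annotated gene between them. Igfbp6 lies at chr15:102144186-102149512 on the plus strand. The other members lie apart from these, with Igf1 at chr10:87858265-87937047, Igf1r at chr7:67952257-68233668, Igfbp3 at chr11:7206086-7215498 and Igfbp4 at chr11:99040005-99052655. These 3 genes are the members called between the conditioned media, and the 300 bases around their start sites, 250 before and 50 after, are shown 5′ to 3′ so that the neighbours, both lower with shBrca2-CM than with shControl-CM, can be compared with the gene that was higher. They are the RefSeq promoter entries, chr1:72824230-72824529 (plus strand), chr1:72874816-72875115 (minus strand) and chr15:102143936-102144235 (plus strand). Capitals mark matches, on either strand, to 8 searched motifs: the TATA box TATAAA, the Sp1 GC box GGGCGG, the E-box CACGTG, the AP-1 site TGACTCA, the FOXO site TGTTTAC, the heat shock element pair GAANNTTC, the C/EBP palindrome TTGCGCAA and the CRE TGACGTCA.
Igfbp2: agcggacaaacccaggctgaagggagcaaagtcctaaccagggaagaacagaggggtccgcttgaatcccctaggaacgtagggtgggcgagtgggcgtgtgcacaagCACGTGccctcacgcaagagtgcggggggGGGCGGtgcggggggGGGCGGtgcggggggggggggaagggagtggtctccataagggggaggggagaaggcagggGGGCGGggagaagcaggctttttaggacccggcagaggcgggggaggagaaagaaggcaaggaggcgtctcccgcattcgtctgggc
Igfbp5: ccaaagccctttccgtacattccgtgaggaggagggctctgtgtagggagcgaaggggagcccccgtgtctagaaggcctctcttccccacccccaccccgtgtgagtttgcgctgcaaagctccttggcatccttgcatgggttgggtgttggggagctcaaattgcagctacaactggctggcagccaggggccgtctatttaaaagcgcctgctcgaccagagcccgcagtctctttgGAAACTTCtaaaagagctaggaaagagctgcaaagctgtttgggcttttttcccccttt
Igfbp6: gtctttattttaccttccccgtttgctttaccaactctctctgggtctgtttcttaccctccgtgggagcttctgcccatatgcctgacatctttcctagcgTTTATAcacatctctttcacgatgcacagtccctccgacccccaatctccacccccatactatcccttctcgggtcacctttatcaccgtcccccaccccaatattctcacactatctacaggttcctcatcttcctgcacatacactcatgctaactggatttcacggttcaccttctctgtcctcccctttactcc
The Igfbp2 sequence held 3 GC boxes, at 113, 98 and 37 bases before the start site, and 1 E-box at 142 bases before it. The Igfbp5 sequence held no match but a heat shock element pair 9 bases before the start site, and the Igfbp6 sequence only a TATA box match on the reverse strand 148 bases before it. Of 32841 RefSeq promoter entries of this length, 35.7% held the GC box, 7.15% the E-box, 7.86% the heat shock element pair and 13.6% the TATA box, while the AP-1, FOXO, C/EBP and CRE letters were in 5.2%, 3.65%, 0.183% and 1.79%. The neighbouring genes shared none of the searched motifs in these windows. Igfbp2 had 2 promoter entries, and its other entry, 72825387 by start site, held an AP-1 match 39 bases before the start. All 8 members matched a promoter entry. A match is a run of letters and was not tested for binding.

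Igfbp2 encodes a binding protein that also carries an integrin-binding motif. With shBrca2-CM its level was 4.34, 8.71 and 2.66 CPM, from 3, 7 and 3 counts. With shControl-CM it was 16.7, 44.4 and 12.9 CPM, from 26, 46 and 19 counts. With growth medium it was 19.5 and 29.0 CPM. Every shBrca2-CM sample lay below every sample of the other groups, and shControl-CM replicate 2 stood above its own group. The group means were 5.24 ± 3.12 and 24.7 ± 17.2 CPM with the conditioned media (SD, n = 3 each). Fitted with edgeR's quasi-likelihood test, Igfbp2 was 4.59-fold lower with shBrca2-CM than with shControl-CM (log2 fold change −2.20, SE 0.59, adjusted p = 0.0916). The call was lost when shBrca2-CM replicate 1, 2 or 3 was left out (edgeR adjusted p = 0.308, 0.190 and 0.378). It was also lost without shControl-CM replicate 2 (edgeR adjusted p = 0.301). Those fits had fewer samples, and their calls over all genes fell from 345 to between 128 and 175. The log2 fold change of Igfbp2 lay between −2.78 and −1.52 over all 6 fits that left out 1 library.

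Igfbp5 encodes a binding protein that is held in the extracellular matrix. Its level was 14.5, 6.22 and 16.9 CPM with shBrca2-CM, from 10, 5 and 19 counts. With shControl-CM it was 79.4, 31.9 and 28.5 CPM, from 124, 33 and 42 counts. All 3 shControl-CM samples were above all others, and replicate 1 was the highest. Means were 12.5 ± 5.58 CPM with shBrca2-CM and 46.6 ± 28.5 CPM with shControl-CM (SD, n = 3 each). Growth medium samples had 10.3 and 9.67 CPM, within the range of shBrca2-CM. Igfbp5 was 3.61-fold lower with shBrca2-CM than with shControl-CM (log2 fold change −1.85, SE 0.46, edgeR adjusted p = 0.0655). Without shBrca2-CM replicate 1, 2 or 3 the edgeR adjusted p was 0.219, 0.329 and 0.186, and without shControl-CM replicate 1 the log2 fold change was −1.22 and the call was kept (adjusted p = 0.0556).

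Igfbp6 encodes a binding protein with a preference for IGF2. Its difference between the conditioned media had the other sign, at 192, 230.2 and 225 CPM with shBrca2-CM against 135, 152 and 155 CPM with shControl-CM. The conditioned media did not overlap, with means of 216 ± 20.4 and 147 ± 10.6 CPM (SD, n = 3 each), and the growth medium samples, at 223 and 291 CPM, lay above every shControl-CM sample. It was 1.5-fold higher with shBrca2-CM than with shControl-CM (log2 fold change 0.58, SE 0.14, edgeR adjusted p = 0.0532). It is close to the fold limit: without shControl-CM replicate 1 the log2 fold change was 0.498 (edgeR adjusted p = 0.0572), and without shBrca2-CM replicate 2, shBrca2-CM replicate 3 or shControl-CM replicate 2 the adjusted p was 0.264, 0.214 and 0.217.

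Called members between the conditioned media were thus 3 of 7 tested, 1 higher and 2 lower. Over all genes tested 3.13% were called, 1.58% higher and 1.55% lower, or 345 of 11035. At an unadjusted p under 0.05 there were 6 of 7 members, and 1477 of all genes tested. With library totals in place of TMM scaling, the calls over all genes shifted from 174 higher and 171 lower to 250 higher and 120 lower, and the median log2 fold change of all genes from 0.03 to 0.14. The 3 members kept their directions under that scaling, but Igfbp2 was no longer called (edgeR adjusted p = 0.116), nor with thinned libraries (0.101). The groups did not overlap for 5 of the 7 members (Igfbp2, Igfbp3, Igfbp4, Igfbp5 and Igfbp6), against 19.8% of all genes tested. The median log2 fold change of the 7 members was −0.67.

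**Figure D1:**
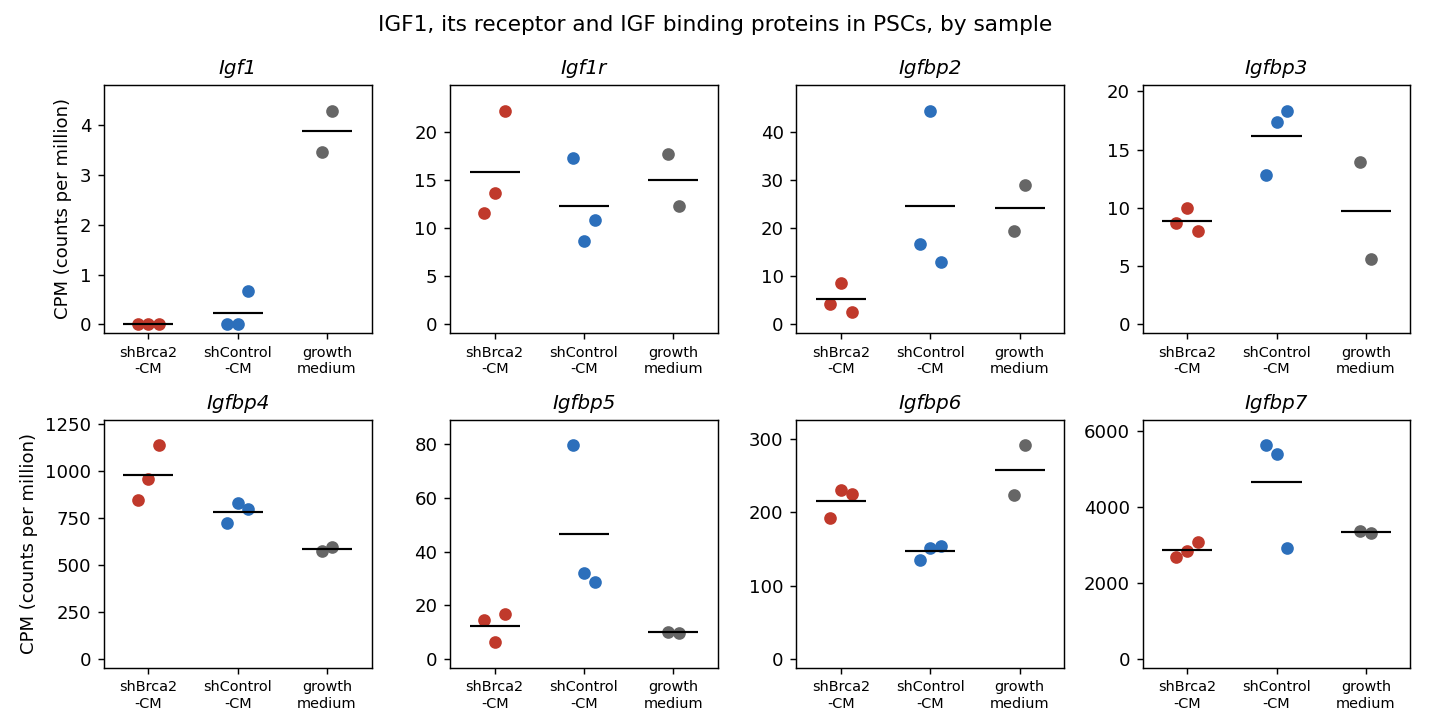
Level of each member in CPM (y axis, linear, separate scale in each panel) by medium, with 1 point per sample and a line at the group mean (3 shBrca2-CM, 3 shControl-CM and 2 growth medium samples). Igfbp2 was lowest with shBrca2-CM, Igfbp5 highest and Igfbp6 lowest with shControl-CM, and Igf1 was seen almost only with growth medium.

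The most counted binding protein gene, Igfbp7, encodes a matrix protein of low affinity for IGFs. With shBrca2-CM it had 2691, 2849.7 and 3086 CPM. With shControl-CM, replicates 1 and 2 had 5634 and 5404 CPM and replicate 3 had 2939 CPM, inside the shBrca2-CM range. The difference was not called (log2 fold change −0.67, SE 0.20, edgeR adjusted p = 0.144). It was called without shControl-CM replicate 3 (log2 fold change −0.93, edgeR adjusted p = 1.67e-05), and with all libraries also by DESeq2 (adjusted p = 0.0157 by likelihood ratio and 0.0153 by Wald test), in 1 fit of all 3 groups (0.0751) and with thinned libraries (0.0812). Igfbp7 lies on the minus strand at chr5:77349240-77408045, and its last 89 bases overlap the end of Polr2b on the plus strand. The annotated gene Gm34648 also overlaps Igfbp7, by an extent not measured here. The strand setting of the counting is not given in the sources used here, so reads in these overlaps cannot be assigned with certainty.

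Igfbp4, which encodes a binding protein that mostly restrains IGF action and is cut by the protease PAPP-A, had 848, 958 and 1138 CPM with shBrca2-CM and 723, 832 and 799 CPM with shControl-CM. The groups did not overlap, yet the difference was small and was not called (log2 fold change 0.35, SE 0.13, edgeR adjusted p = 0.248). Igfbp3, whose product is the main IGF carrier in blood, had 8.68, 9.96 and 7.99 CPM against 12.8, 17.4 and 18.3 CPM. These groups also did not overlap, at 6 to 27 counts per library, and the difference was not called (log2 fold change −0.84, SE 0.35, edgeR adjusted p = 0.309).

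Igf1r had 11.6, 13.7 and 22.2 CPM with shBrca2-CM, while the shControl-CM samples had 17.3, 8.70 and 10.9 CPM and the growth medium samples 17.7 and 12.3 CPM. The ranges of the 3 groups overlapped, and it was called in none of the comparisons, with a log2 fold change of 0.40 (SE 0.38, edgeR adjusted p = 0.720) between the conditioned media. These values rest on 8 to 27 counts per conditioned library.

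**Figure D2:**
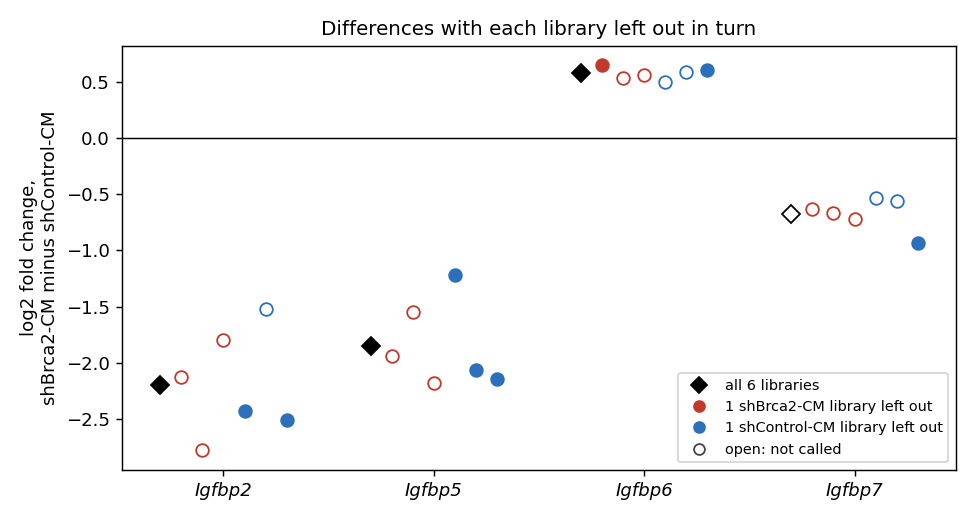
Fitted log2 fold change (y axis, shBrca2-CM minus shControl-CM) of Igfbp2, Igfbp5, Igfbp6 and Igfbp7 with all 6 libraries (diamonds) and with each library left out in turn (circles), where filled symbols are called. Directions held in every fit, while Igfbp2 was called in 2 of 6, Igfbp5 in 3 of 6, Igfbp6 in 2 of 6 and Igfbp7 in 1 of 6 fits.

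The relation of Igfbp4 to Igfbp7 within a library does not depend on library scaling. There were 31.5, 33.6 and 36.9 Igfbp4 counts per 100 Igfbp7 counts with shBrca2-CM, whereas shControl-CM libraries had 12.8, 15.4 and 27.2 and growth medium libraries 17.0 and 17.9. All shBrca2-CM libraries were above all other libraries, and shControl-CM replicate 3, the library with low Igfbp7, was nearest to them. How often other gene pairs separate the groups in this way was not tested. The other ratio computed, Igfbp6 counts per 100 Igfbp4 counts, was 22.7, 24.0 and 19.7 with shBrca2-CM and 18.7, 18.2 and 19.4 with shControl-CM. In growth medium that ratio was 38.7 and 48.7. The summed level of the 6 binding protein genes was 4232 and 4263 CPM in the growth medium libraries, and ran from 3953 to 6600 CPM in shControl-CM and from 3758 to 4476 CPM in shBrca2-CM libraries, ranges that overlapped. The sum follows Igfbp7, which gave 80.1% and 78.1% of the binding protein counts in growth medium, between 74.4% and 85.4% in shControl-CM and between 68.9% and 71.6% in shBrca2-CM.

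**Figure D3:**
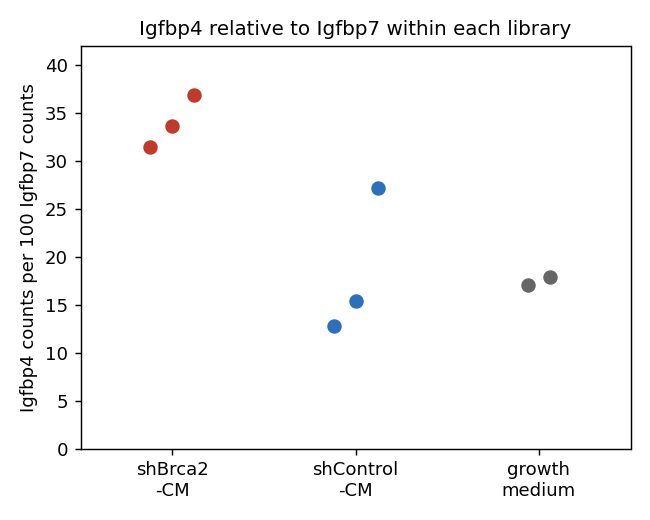
Igfbp4 counts per 100 Igfbp7 counts (y axis) in each library by medium, 1 point per sample. The 3 shBrca2-CM libraries lie between 31.5 and 36.9 and the other 5 libraries between 12.8 and 27.2.

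The comparisons of each conditioned medium with growth medium share the same 2 growth medium samples, so their values are given side by side. With shControl-CM, 2 of 8 members were called, Igfbp5 higher and Igfbp6 lower, where 37.1% of all genes tested were called (18.2% higher and 18.9% lower). With shBrca2-CM, 2 of 8 were called, Igfbp4 higher and Igfbp2 lower, where 37.8% of all genes tested were called (18.6% higher and 19.2% lower). Counts of 2 in 8 are too few to set apart from these shares. The median log2 fold change of the members was 0.19 with shControl-CM and −0.20 with shBrca2-CM, against −0.10 and −0.05 over all genes.

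Igfbp5 was 4.71-fold higher with shControl-CM than with growth medium (log2 fold change 2.24, SE 0.43, edgeR adjusted p = 0.00386), against a log2 fold change of 0.37 for shBrca2-CM (SE 0.34, adjusted p = 0.415). Igfbp6 was 1.76-fold lower with shControl-CM (log2 fold change −0.81, SE 0.17, edgeR adjusted p = 0.00554), and its log2 fold change with shBrca2-CM was −0.25 (SE 0.15, adjusted p = 0.185). Both calls with shControl-CM held without any single library, but without shControl-CM replicate 1 the log2 fold change of Igfbp5 was 1.59. For these genes, then, the mean with shBrca2-CM lay nearer to growth medium than the mean with shControl-CM.

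Igfbp2 and Igfbp4 had the opposite arrangement. Igfbp2 was 4.79-fold lower with shBrca2-CM than with growth medium (log2 fold change −2.26, SE 0.38, edgeR adjusted p = 1.56e-06), and its log2 fold change with shControl-CM was −0.04 (SE 0.44, adjusted p = 0.955). Igfbp4 was 577 and 598 CPM with growth medium and rose 1.68-fold with shBrca2-CM (log2 fold change 0.75, SE 0.14, edgeR adjusted p = 1.14e-05). With shControl-CM, Igfbp4 passed the p limit (adjusted p = 0.0553) but not the fold limit, at a log2 fold change of 0.41 (SE 0.15). Its lowest sample with either conditioned medium was above both growth medium samples. Both calls with shBrca2-CM held without any single library.

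Igfbp7 had 3389 and 3330.0 CPM with growth medium, above every shBrca2-CM sample, and was called with neither medium (log2 fold change 0.47, edgeR adjusted p = 0.188, with shControl-CM, and −0.22, adjusted p = 0.156, with shBrca2-CM). Without shControl-CM replicate 3 it was higher with shControl-CM (log2 fold change 0.72, edgeR adjusted p = 3.32e-04). Igfbp3 had 13.9 and 5.59 CPM with growth medium, with a wide spread between them, and was not called (log2 fold change 0.69 and −0.18). Without growth medium replicate 1, Igfbp3 was called higher with shControl-CM (log2 fold change 1.53, edgeR adjusted p = 0.0918).

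Igf1, the ligand gene, had 20 and 20 counts with growth medium, or 3.48 and 4.30 CPM. It had 0 counts in all 3 shBrca2-CM libraries and 0, 0 and 1 counts with shControl-CM. Taking 3 counts over the summed shBrca2-CM libraries as the limit that a count of 0 allows, Igf1 was at least 3.36-fold lower with shBrca2-CM than with growth medium. For shControl-CM the ratio of 1 count to 40 gave a 15.6-fold lower level (exact 95% interval 2.65 to 633, counting error only). Igf1 passed the p limit in both comparisons with growth medium (edgeR adjusted p = 0.0122 with shControl-CM and 0.00138 with shBrca2-CM) but its mean normalized count was below 5, so it was not called. Without shControl-CM replicate 1 or 2 it was called lower with shControl-CM (edgeR adjusted p = 0.0254 and 0.0511). Between the conditioned media it fell below the filter of 10 counts and was not tested.

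**Figure D4:**
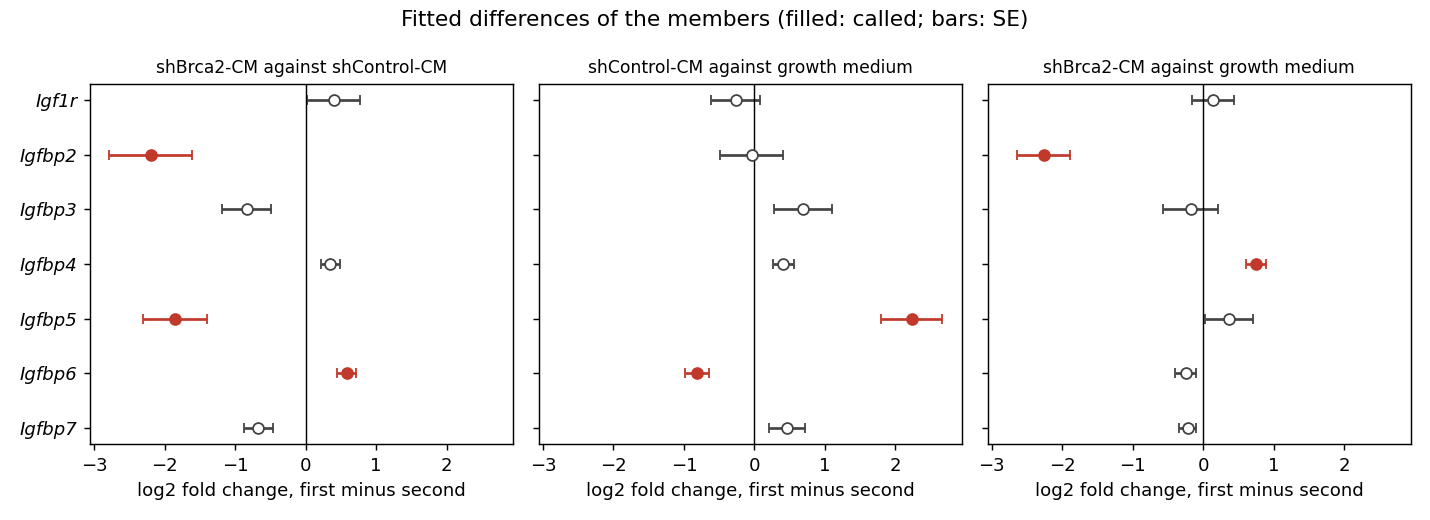
Fitted log2 fold change (x axis, first medium minus second) with its SE of 7 members in the 3 comparisons, where filled points are called. Igf1 is not drawn because a group was at or near 0. The called members were Igfbp2, Igfbp5 and Igfbp6 in the left panel, Igfbp5 and Igfbp6 in the middle panel and Igfbp2 and Igfbp4 in the right panel.

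The genes whose pattern over the 8 samples was nearest to that of Igfbp2, by the root mean square distance of centred log2 CPM among 12117 genes, were Kcnmb4, Pgbd5, 2610318N02Rik, Sema3c and Tro, at distances of 0.524 to 0.576. Kcnmb4, the nearest, had 3, 4 and 4 counts with shBrca2-CM, then 22, 17 and 14 for shControl-CM, and 104 and 66 in growth medium. The other 4 had at most 5 counts in any conditioned library, so their likeness rests on few counts.

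A list of 68 other genes of the IGF axis placed the members in their pathway, and 57 of them were in the table. Between the conditioned media 4 of 52 tested were called, or 7.69%, 2 higher and 2 lower, where 3.13% of all genes tested were called, with a median log2 fold change of 0.07 against 0.03 over all genes. Both tested genes of the class of binding protein proteases and their inhibitors were lower with shBrca2-CM. They were Stc1 and Stc2, which encode stanniocalcins, inhibitors of PAPP-A. Pappa, the gene of PAPP-A itself, was not among the genes counted. Stc2 had 17.4, 19.9 and 23.1 CPM with shBrca2-CM, then 67.3, 82.1 and 77.4 CPM in the shControl-CM samples and 15.6 and 14.6 CPM in growth medium. It was higher in every shControl-CM sample than in any other sample, as was Igfbp5. The log2 fold change of Stc2 between the conditioned media was −1.85 (SE 0.21, edgeR adjusted p = 5.13e-04). Stc1 had 0, 2 and 2 counts with shBrca2-CM against 19, 20 and 12 with shControl-CM (log2 fold change −2.98, SE 0.66, edgeR adjusted p = 0.0378). Without any single shBrca2-CM replicate, or without shControl-CM replicate 2, the Stc1 call was lost, with edgeR adjusted p between 0.137 and 0.185.

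Among other proteins with an IGFBP domain, 2 of 8 tested were higher with shBrca2-CM than with shControl-CM. Ccn2, which encodes connective tissue growth factor, had 27.5, 37.3 and 25.7 CPM against 3.84, 7.73 and 7.47 CPM (log2 fold change 2.28, SE 0.36, edgeR adjusted p = 0.00470). Htra1, which encodes a secreted serine protease, had 30.4, 41.1 and 37.3 CPM against 10.9, 13.5 and 15.6 CPM (log2 fold change 1.47, SE 0.27, edgeR adjusted p = 0.0142), and without shBrca2-CM replicate 2 its adjusted p was 0.116. With thinned libraries the log2 fold changes were 3.05 for Ccn2 and 2.25 for Htra1. Both genes were still lower with shBrca2-CM than with growth medium, where Ccn2 had 108 and 119 CPM and Htra1 had 80.3 and 86.4 CPM. Esm1, which encodes the proteoglycan endocan, had 8, 8 and 4 counts with shBrca2-CM and 0 in all shControl-CM libraries, so it was at least 10.3-fold lower with shControl-CM, but its mean normalized count was below 5 and it was not called. It was called in the fit of all 3 groups (edgeR adjusted p = 0.0139) and without shControl-CM replicate 2 or 3 (0.0649 and 0.00796).

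The remaining classes with more than 1 gene tested gave no call between the conditioned media, where 3.13% of all genes tested were called, so that a count of 0 is near the background. The counts were 0 of 3 receptors, 0 of 6 receptor adaptors, 0 of 13 genes of the PI3K-AKT-mTOR class, 0 of 11 FOXO genes and FOXO targets, 0 of 5 genes of growth hormone signalling and 0 of 3 IGF2 mRNA-binding proteins in edgeR. At an unadjusted p under 0.05 these classes held 3 genes in all: Pik3r1, Stat5a and Igf2bp2, with log2 fold changes of 0.73, −0.58 and 0.43. DESeq2 also called none of these classes' genes, in its likelihood ratio or Wald test. Igf2r, whose product clears IGF2, had 130.2, 137 and 168 CPM with shBrca2-CM and 131, 163 and 153 CPM with shControl-CM (log2 fold change −0.01, with a sign that turned under total counts). Insr, the insulin receptor gene, had 6, 6 and 17 counts against 19, 4 and 1 (log2 fold change 0.91, SE 0.67, edgeR adjusted p = 0.627). It was called without shControl-CM replicate 1 (log2 fold change 2.36, edgeR adjusted p = 0.0502).

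Igf2, the other IGF ligand gene, had 102 and 73 counts with growth medium, 3, 0 and 1 with shControl-CM and 0, 5 and 7 with shBrca2-CM. It was lower than with growth medium with either conditioned medium, with a log2 fold change of −4.05 (SE 0.55, edgeR adjusted p = 5.37e-04) with shControl-CM and −1.87 (SE 0.41, adjusted p = 2.03e-04) with shBrca2-CM. Without shControl-CM replicate 1, which held 3 of the 4 counts, the first was −5.26, and over the fits without 1 library it ran from −5.26 to −3.64. The conditioned media were not told apart for Igf2 (log2 fold change 2.10, SE 0.97, edgeR adjusted p = 0.377, and a log2 fold change of 3.16 without shControl-CM replicate 1). Both ligand genes were therefore low in conditioned medium, whose libraries were the smaller ones.

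Against growth medium, 25 of 57 axis genes were called with shControl-CM, or 43.9%, 7 higher and 18 lower, and 28 of 57 with shBrca2-CM, or 49.1%, 9 higher and 19 lower. Over all genes tested the shares were 37.1% (18.2% higher and 18.9% lower) and 37.8% (18.6% higher and 19.2% lower). Median log2 fold changes of the list were −0.25 and −0.36. The named genes that fell with both media included Ccn3, a matricellular protein gene, which went from 515 and 485 CPM with growth medium to between 20.3 and 77.2 CPM (log2 fold change −3.98 with shControl-CM and −3.24 with shBrca2-CM, edgeR adjusted p = 3.84e-06 and 1.17e-23). Adam12, a metalloprotease gene whose product cuts binding proteins, had 45 and 24 counts with growth medium against 1 in all shControl-CM libraries, a 27.0-fold ratio (exact 95% interval 4.68 to 1081), and 2 in all shBrca2-CM libraries, an 8.69-fold ratio (2.32 to 73.2). Esm1 was at least 40.3-fold lower with shControl-CM than with growth medium.

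Irs1, which encodes an adaptor of the IGF1 and insulin receptors, had 48 and 38 counts with growth medium and at most 3 in a conditioned library (log2 fold change −2.71 with shControl-CM, edgeR adjusted p = 0.00914, and −2.40 with shBrca2-CM, adjusted p = 0.00104). The FOXO targets Pdk4, a kinase gene of glucose oxidation, and Fbxo32, a ubiquitin ligase gene, were lower with both media, at log2 fold changes of −1.60 and −2.88 with shControl-CM (edgeR adjusted p = 0.0128 and 0.00281) and −2.47 and −2.26 with shBrca2-CM (adjusted p = 5.94e-05 and 0.00129). Of the genes named, Insr rose with shBrca2-CM (log2 fold change 2.24, SE 0.47, edgeR adjusted p = 9.51e-05) and Stc2 with shControl-CM (log2 fold change 2.30, SE 0.21, adjusted p = 5.70e-05). Stc1 was lower with shBrca2-CM than with growth medium (log2 fold change −2.16, SE 0.64, edgeR adjusted p = 0.00482). Several of these values moved with 1 library. Irs1 was −3.30 without shControl-CM replicate 1 and −2.08 without replicate 3, and −3.55 without shBrca2-CM replicate 3. Fbxo32 was −3.98 without shBrca2-CM replicate 2 and −1.47 without replicate 3, and Insr was 3.03 without growth medium replicate 1. With thinned libraries the Irs1 calls (edgeR adjusted p = 0.369 and 0.319) and the Fbxo32 and Stc1 calls with shBrca2-CM (0.136 and 0.181) were lost. The Insr call with shBrca2-CM, the Pdk4 calls with both media and the Fbxo32 call with shControl-CM were lost too. Their adjusted p stayed under 0.1, but the mean normalized count fell to 5 or less. In the fit of all 3 groups the Adam12 and Irs1 calls with both media were lost in that way. Leaving out a growth medium library also ended some calls. With shControl-CM the Pdk4 and Irs1 calls were lost without growth medium replicate 1 (edgeR adjusted p = 0.150 and 0.101). The Adam12 call was lost with either medium without replicate 1 or 2, as were the Irs1 and Stc1 calls with shBrca2-CM, and the Fbxo32 call with shBrca2-CM was lost without replicate 1, each because the mean normalized count fell to 5 or less. Without shControl-CM replicate 3, Insr and Stc1 were called higher with shControl-CM than with growth medium (log2 fold change 1.91 and 1.13, edgeR adjusted p = 0.0102 and 0.0211).

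**Figure D5:**
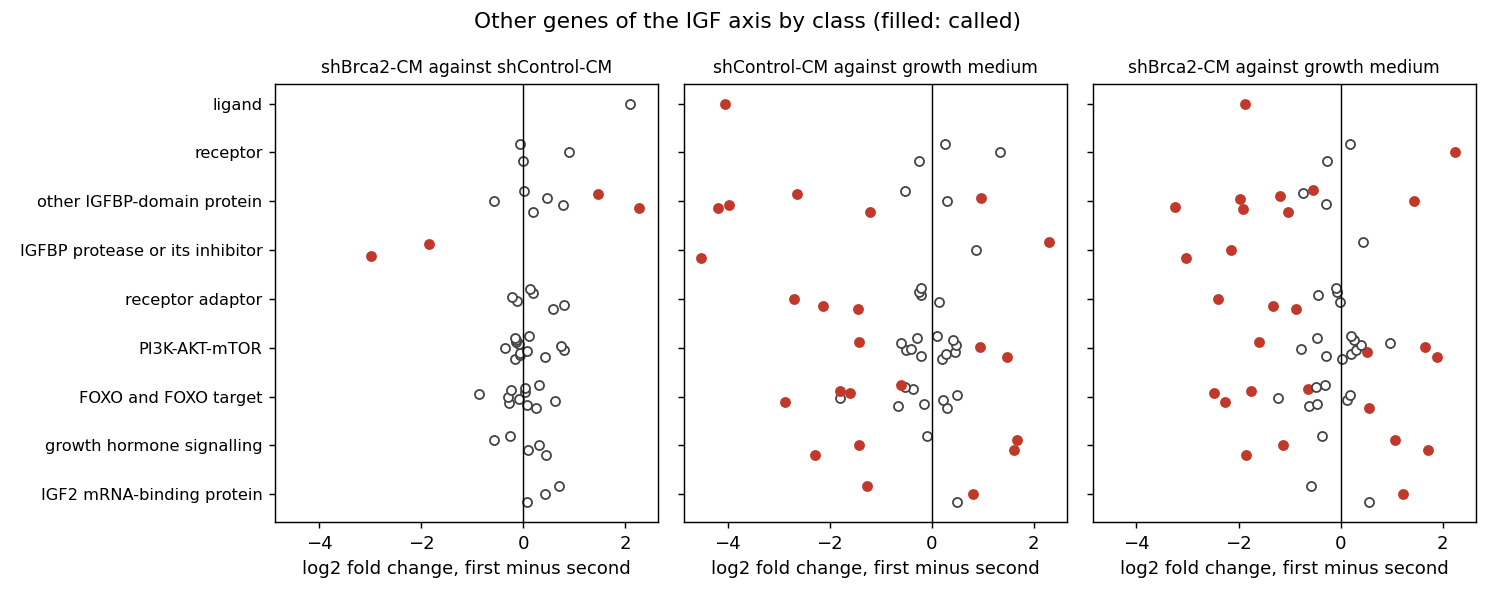
Fitted log2 fold change (x axis, first medium minus second) of the other genes of the IGF axis by class (y axis), 1 point per gene tested in each of the 3 comparisons, where filled points are called and genes with no count in a group are not drawn. Few points are filled between the conditioned media (4 of 52 tested were called). Similar numbers are filled in the 2 comparisons with growth medium (25 and 28 of 57 tested were called). Esm1, called with shControl-CM against growth medium, is among the genes not drawn.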

How the data were processed

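RNA of immortalized mouse PSCs in 3 media was measured by MARS-seq, a 3′ end protocol, on a NextSeq 500 instrument. The deposited values are raw read counts, 1 row per gene and 1 column per dome, which the authors neither pooled nor normalized. The submitters' processing notes name mm10, bcl2fastq, cutadapt, STAR 2.4.2a, HTSeq and DESeq2, while the annotation, the strand setting and the treatment of molecular identifiers are not given in the sources used here. Domes are described as biologically independent. A further column, 1 in number, is named as another DMEM library but has no sample record and was left out, so growth medium has 2 libraries here.

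Samples were grouped by title and recorded treatment. Each pair of groups was fitted alone in R 4.3.3 with edgeR 4.0.16 by the quasi-likelihood test after TMM scaling. Genes needed a sum of 10 counts in the fitted samples, and p-values were adjusted over all of them by Benjamini-Hochberg. SE is the absolute log2 fold change over the square root of F. CPM used TMM over all 8 libraries. Called genes had adjusted p under 0.1, absolute log2 fold change over 0.5 and mean normalized count over 5. A floor of 3 counts over a group's summed libraries stood for groups at 0. Intervals and floors cover counting error only. Scripts were tested on simulated data. The members, the 68-gene list, the markers and the alternatives were chosen with earlier results of these data known. Named by rule were all members, Igf2, Igf2r, Insr, the 5 called axis genes with the largest absolute log2 fold change in each comparison, and the 5 genes nearest in pattern to Igfbp2. Motifs were chosen for this description. Alternatives were DESeq2 1.42.0 (likelihood ratio and Wald tests), its size factors, total counts, other filters, a replicate block, a joint fit of the 3 groups, libraries thinned to the smallest, stricter thresholds and each library left out.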

Additional observations from a re-analysis of the deposited data

How the results depend on the processing

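Over the members, 325 values were recomputed under the alternatives, of which 291 kept their direction and side of the threshold, 13 lost and 10 gained a call and 11 turned sign. For the other named genes the numbers were 501, 455, 28, 11 and 7. Of the turned values none was called: under total counts and filterByExpr Igf2r between the conditioned media was 0.11 and 0.0057, and without 1 library −0.12 to 0.058. Against growth medium with shControl-CM, Igfbp2 was 0.23 with the replicate block and −0.71 to 0.29 without 1 library, Igf1r −0.60 to 0.038 and Insr −0.17 to 2.12 without 1 library. With shBrca2-CM, Igf1r was −0.21 with the block, −0.12 with thinned libraries and −0.25 to 0.44 without 1 library, and Igfbp3 was 0.014 with the block and −0.65 to 0.65 without 1 library. The cause was not tested.

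At stricter limits (adjusted p 0.05, absolute log2 fold change 1) called members fell to 0 between the conditioned media, 1 with shControl-CM (Igfbp5) and 1 with shBrca2-CM (Igfbp2), and called genes to 130, 2375 and 2185, by the construction of those thresholds. Thinned libraries gave 2934 called genes with shControl-CM against growth medium. Without 1 library the members called between the conditioned media ranged from 0 to 4, the axis genes from 2 to 10 and all genes from 128 to 976, and with shControl-CM against growth medium the axis genes ranged from 15 to 30 and all genes from 1901 to 5157. Libraries with fewest counts limit Igf1, Igfbp2, Igfbp3 and Igf1r.

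Same-numbered samples did not deviate together more than others (correlations of −0.0227 to 0.116, against −0.116 to 0.126 for other numbers). The deviations were centred within groups of 3 or 2 samples, which ties these correlations to each other. They therefore cannot decide whether the numbers pair the samples. The replicate block gave 3 called members between the conditioned media, 3 with shControl-CM and 2 with shBrca2-CM, and 311, 4512 and 3850 called genes. DESeq2's likelihood ratio test called 283, 3504 and 3663 genes.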
